A study of Danio rerio with 6 samples.

Results

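Keratins are the intermediate filament proteins of epithelial cells. A filament forms only from equal parts of an acidic (type I) and a basic (type II) keratin, so the genes are used in pairs, and different epithelial layers use different pairs. krt8 (type II) and krt18 (type I) are the pair of simple, single-layered epithelia, whereas in the zebrafish embryo krt4, krt5 and the type I keratins cyt1, cyt1l, krt17 and krt91 are keratins of the skin, where a flat outer layer (the periderm) covers a basal layer that is marked by krtt1c19e. Desmosomes join keratin filaments of neighbouring cells, and hemidesmosomes anchor them to the basement membrane. The keratins were taken from the table as every gene whose symbol begins with krt or cyt1, leaving out the unrelated krtcap genes. This gave 19 of 31701 genes. Of these, 17 averaged 5 or more units over the 6 libraries and were tested together with all other such genes (20900 in all), and 11 averaged 50 or more. All 19 are annotated as protein-coding genes.

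The libraries are endothelial cells sorted from 48 hpf zebrafish embryos of strain AB, and the study asked what the homeobox gene hhex does in these cells. The hhex overexpression (OE) cells came from Tg(kdrl:EGFP)s843 embryos that also carried Tg(fli1a:tdTomato-2A-hhex)bns136, in which the endothelial fli1a promoter drives hhex, and they were sorted as positive for both EGFP and tdTomato. The hhex mutants and their siblings carried Tg(kdrl:EGFP)s843 alone and were sorted for EGFP. The mutants were picked by the absence of parachordal lymphangioblasts, the first lymphatic precursors, and are homozygous for the s722 allele, an in-frame deletion in the homeodomain. The siblings were picked by the presence of these cells, so that they are hhex+/? and may carry the mutation on 1 chromosome. Each group had 2 libraries. The OE gate and transgene differ from those of both other groups, so the effects of hhex and of the gate cannot be told apart. The values are read counts per gene, scaled between libraries and rounded by the authors and not corrected for gene length, so they compare libraries and not genes. The libraries held between 19649746 and 23615228 reads on genes, as estimated from the rounded values and not counted. Of the summed values, 32.4 to 36.0% fell on ribosomal RNA genes. Whether 2 libraries of a group came from separate clutches is not stated, so p-values measure the spread between these libraries. hhex itself was not analysed here.

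In these endothelial libraries the keratins formed no single block. krt8 and krt18 went with the endothelial marker genes, krt94 did so less closely, and krt4, cyt1l, cyt1, krt5, krtt1c19e, krt91, krt17 and krt92 did not. This division was made after the values were seen. Most keratins were higher in OE cells than in both other groups, but no keratin passed the threshold (adjusted p under 0.05) in any of the 3 comparisons. Mutant 1 and mutant 2 lay far apart for every one of the 11 most read keratins, and sibling 1 and sibling 2 for most of them. In sorted bulk cells, fewer cells of a type and less RNA per cell cannot be told apart.

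krt8 lies on chromosome 23 of the GRCz10 assembly, from 10314656 to 10319318. Its normalised values were 28489 and 21760 in the OE libraries, 6596 and 21774 in the mutants, and 9403 and 16102 in the siblings. Both OE libraries were above both sibling libraries, but mutant 2 reached the level of the lower OE library while mutant 1 was the lowest of all 6. krt8 was 1.02 higher in OE cells than in siblings on the log2 scale (SE 0.51, adjusted p = 0.374, limma on log2(value + 1)) and 1.06 higher in OE cells than in mutants (SE 0.51, adjusted p = 0.321). Mutants and siblings differed by -0.04 (SE 0.51, adjusted p = 1).

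krt18, the partner of krt8, lies on the same chromosome at 10412881 to 10416784. It had values of 15696 and 11665 in OE cells, 4198 and 10996 in mutants, and 6083 and 9319 in siblings. The order of the 6 libraries was nearly that of krt8, with OE 1 highest and mutant 1 lowest. In krt18 both OE libraries were also above both mutants (log2 difference 0.99, SE 0.43, adjusted p = 0.282) and above both siblings (0.85, SE 0.43, adjusted p = 0.378). The ratio of krt8 to krt18 reads stayed between 1.55 and 1.98 in all 6 libraries, although krt8 itself varied 4.32-fold between them.

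krt94 lies on chromosome 11 at 11484945 to 11488236. It had values of 2209 and 1514 in OE cells, 842 and 3026 in mutants, and 1060 and 1779 in siblings. Its highest library was mutant 2, and the 3 groups overlapped. The log2 difference was 0.41 for OE cells against siblings (SE 0.55, adjusted p = 0.731) and 0.20 for OE cells against mutants (SE 0.55, adjusted p = 0.875). Its neighbour krt93, 10.4 kb away, was far lower and also highest in mutant 2, with 28 and 10 in OE cells, 4 and 39 in mutants, and 10 and 11 in siblings.

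**Figure D1:**
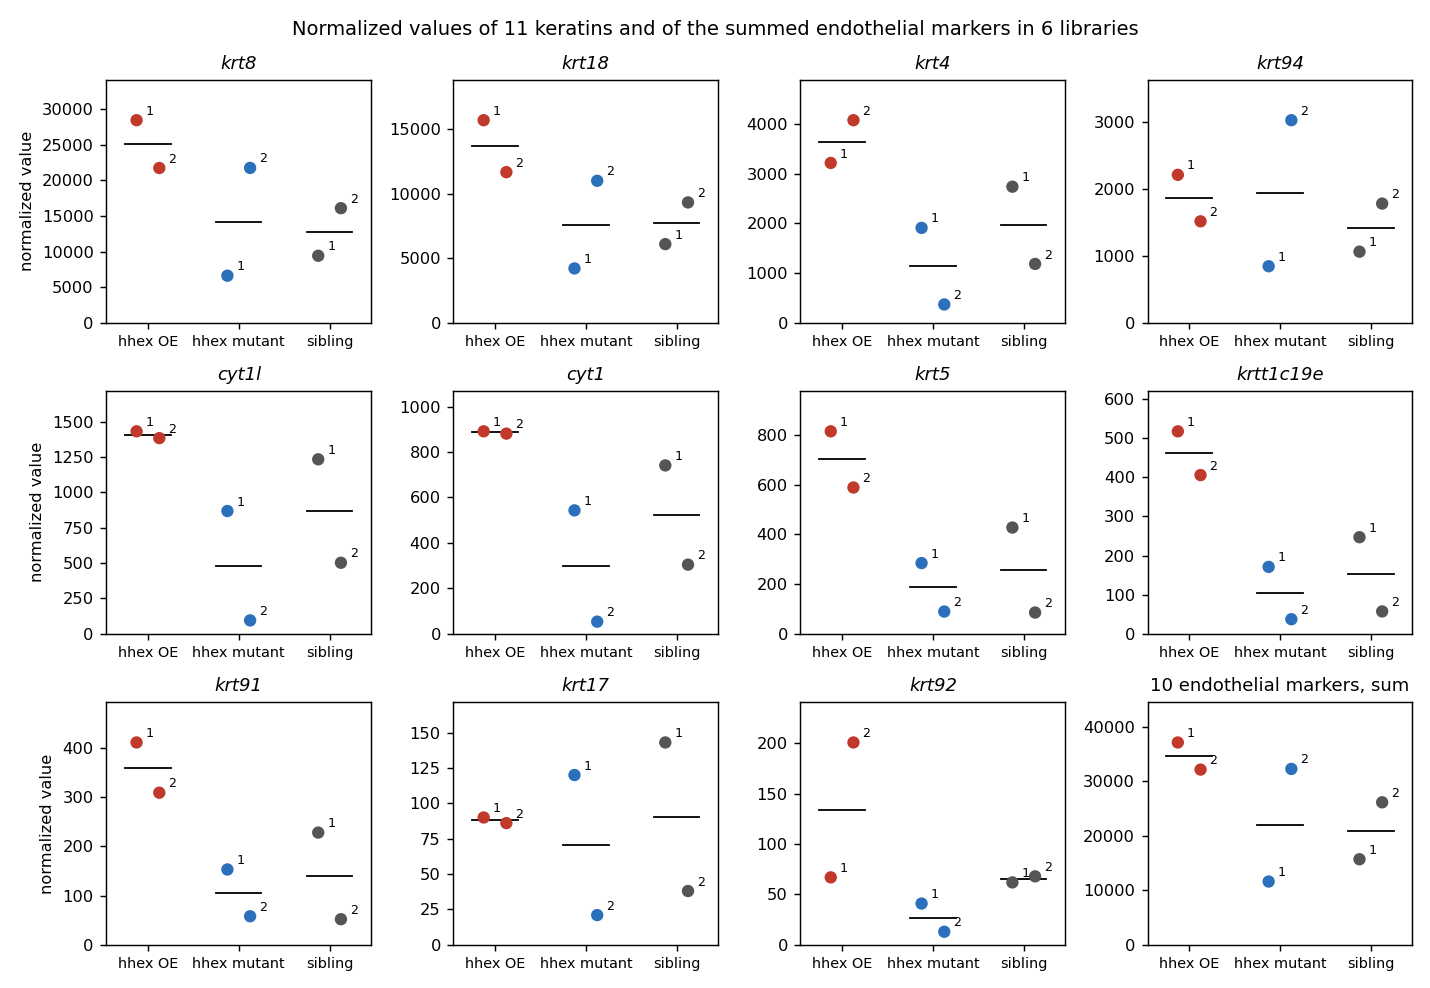
Normalised values (vertical axes, from 0) of the 11 keratins averaging 50 or more and of the sum of 10 endothelial markers, for the OE, mutant and sibling libraries; points are libraries, numbered by replicate, and bars are group means of 2. In mutant 2, krt8 (21774) and the endothelial sum (32249) are near the OE level, while krt4 (365) and cyt1 (53) are at their lowest.

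The summed endothelial markers had the same order of libraries as krt8, although single markers differed in the order of the OE libraries and mutant 2. The 10 genes of this list (the receptor genes tie1 and tek, the transcription factor genes fli1a and erg, the junction genes pecam1, esama and cldn5b, and egfl7, ecscr and clec14a) were all detected in every library and summed to 37097 and 32124 in OE cells, 11604 and 32249 in mutants, and 15688 and 26127 in siblings. Per 100 units of this sum, krt8 had between 56.8 and 76.8 units in the 6 libraries, which is a 1.35-fold range. krt18 had between 34.1 and 42.3, which is a 1.24-fold range. krt94 followed the sum less closely, with between 4.71 and 9.38, a 1.99-fold range, and was highest in mutant 2. Over the 6 libraries, the Pearson correlation with the mean log2 level of the endothelial list was 1.00 for krt8, 0.99 for krt18 and 0.87 for krt94. These are descriptions over 6 points that share libraries and scaling. When the libraries were rescaled to the endothelial markers, the difference between OE cells and siblings became 0.18 for krt8, 0.01 for krt18 and -0.43 for krt94, and the difference between OE cells and mutants became 0.14, 0.08 and -0.71 for the same 3 genes. The median of all genes then stood at -0.79 for OE cells against siblings and at -0.87 for OE cells against mutants, since this scaling shifts all genes alike. Because of these values the 19 genes are called keratins here and not epidermal keratins.

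krt4, the type II keratin of the outer skin layer, lies on chromosome 6 at 39310962 to 39315491. It had values of 3218 and 4080 in OE cells, 1909 and 365 in mutants, and 2739 and 1182 in siblings. OE libraries were the 2 highest, and the libraries that were high in krt8 within the mutants and the siblings were low in krt4. The log2 difference was 2.12 for OE cells against mutants (SE 0.70, adjusted p = 0.207), 1.01 for OE cells against siblings (SE 0.70, adjusted p = 0.496) and -1.11 for mutants against siblings (SE 0.70, adjusted p = 1). For each krt8 read there were 0.11 and 0.19 krt4 reads in OE cells, 0.29 and 0.02 in mutants, and 0.29 and 0.07 in siblings, a 17.4-fold range with sibling 1 and mutant 1 at the top and mutant 2 at the bottom.

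On chromosome 19, 7 keratins (krt1-19d, krtt1c19e, krt92, cyt1l, krt17, cyt1 and krt91) lie within 56.1 kb, from 5408167 to 5464284, all on the minus strand. Of these, cyt1l and cyt1, both type I, followed krt4. cyt1l had 1432 and 1384 in OE cells, 868 and 94 in mutants, and 1234 and 502 in siblings. cyt1 had 891 and 881 in OE cells, 543 and 53 in mutants, and 741 and 304 in siblings. For both genes the OE libraries nearly coincided, whereas mutant 1 was 9.23-fold above mutant 2 for cyt1l and 10.2-fold above it for cyt1. The log2 difference between OE cells and mutants was 2.29 for cyt1l (SE 0.89, adjusted p = 0.254) and 2.37 for cyt1 (SE 0.92, adjusted p = 0.253), and between OE cells and siblings 0.84 (SE 0.89, adjusted p = 0.663) and 0.90 (SE 0.92, adjusted p = 0.65). The ratio of cyt1l to cyt1 stayed between 1.57 and 1.77. Their gene models, taken from start to end, overlap by 7032 bases on the same strand, and whether their exons overlap was not examined. The authors left out reads that fell on several genes, so the division of reads between cyt1l and cyt1 is uncertain.

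The second group of skin keratins was krt5, krtt1c19e and krt91. krt5 had 814 and 588 in OE cells, 284 and 89 in mutants, and 427 and 85 in siblings. krtt1c19e, the marker of the basal layer, had 518 and 406 in OE cells, 171 and 37 in mutants, and 247 and 57 in siblings. krt91 had 411 and 309 in OE cells, 153 and 58 in mutants, and 228 and 52 in siblings. In each of the 3 genes both OE libraries were above the 4 others, and mutant 2 and sibling 2 were the 2 lowest. The same held for krt4, cyt1l and cyt1. The profiles of krt5, krtt1c19e and krt91 were nearly the same. Their Pearson correlation with krt5 was 0.99 for krtt1c19e and 1.00 for krt91, against 0.88 for krt4 and 0.09 for krt8. krtt1c19e was also close to krt4 (correlation 0.94). These genes also had the largest differences between OE cells and siblings among the 11 keratins averaging 50 or more, at 1.85 for krt5 (SE 0.76, adjusted p = 0.316), 1.94 for krtt1c19e (SE 0.80, adjusted p = 0.321) and 1.70 for krt91 (SE 0.69, adjusted p = 0.314). Against mutants the differences were 2.11, 2.51 and 1.91 (adjusted p between 0.199 and 0.233). krt5 lies at 10238226 to 10242488, only 72.2 kb from krt8, so neighbouring genes on chromosome 23 belonged to different patterns.

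krt17 and krt92 were also lowest in mutant 2 but differed from krt4 in the OE libraries. krt17 was highest in sibling 1, with 90 and 86 in OE cells, 120 and 21 in mutants, and 143 and 38 in siblings. krt92 had 67 and 201 in OE cells, 41 and 13 in mutants, and 62 and 68 in siblings. krt92 had the lowest adjusted p of any keratin for OE cells against mutants (log2 difference 2.27, SE 0.66, adjusted p = 0.179) and was the only tested keratin that was lower in both mutants than in both siblings (-1.44, SE 0.66, adjusted p = 1). Both genes overlap cyt1l and cyt1 on the same strand. The overlaps are 2122 and 5243 bases for krt17 and 8239 and 2240 bases for krt92. These are again overlaps of whole gene models, which may limit the read counts of both genes in the same way. krt91 overlaps cyt1 by 2182 bases.

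**Figure D2:**
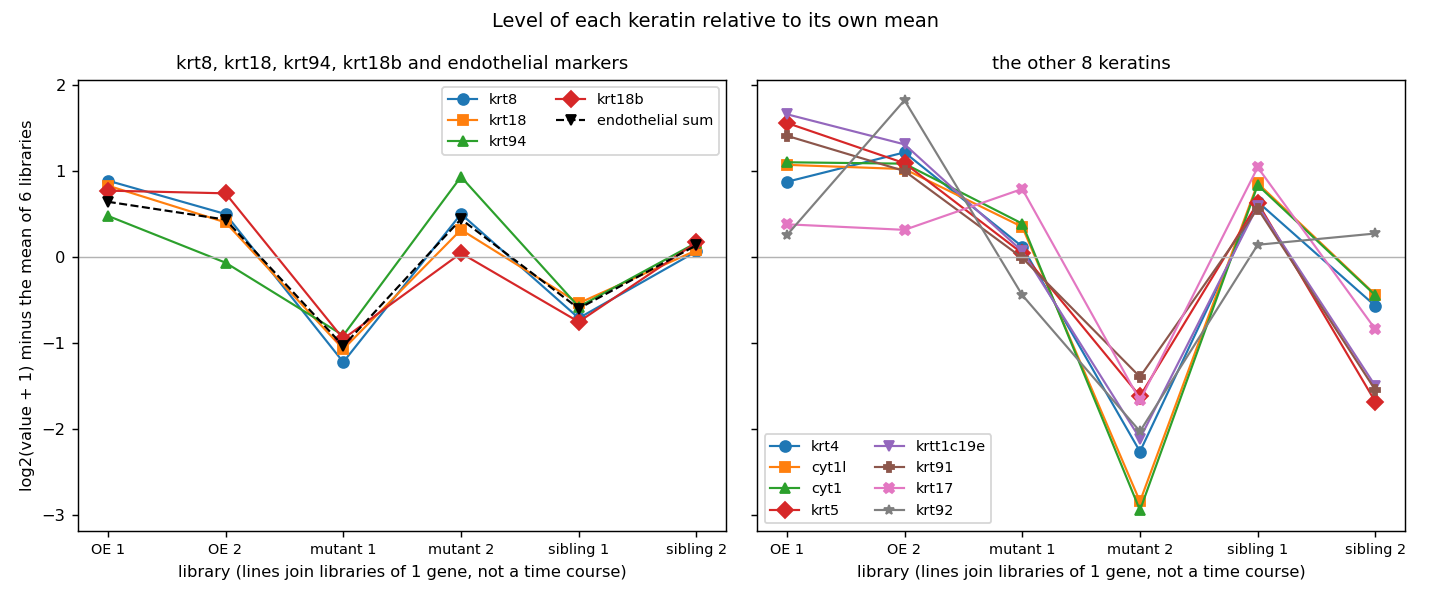
log2(value + 1) of each gene minus its own mean over the 6 libraries (vertical axis), by library (horizontal axis), for krt8, krt18, krt94, krt18b and the summed endothelial markers (left) and for 8 other keratins (right). In the left panel mutant 1 and sibling 1 are the 2 lowest libraries of every line, and in the right panel mutant 2 is the lowest library of every line except krt5 and krt91, in which sibling 2 is slightly lower.

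Of the 8 remaining keratins, krt97, krt96, krt15, krt1-c5 and krt1-19d had between 2 and 67 in the single libraries, krt93 is given above, and krt222 and krt95 had at most 4 and were not tested. krt97 and krt96 overlap by 3053 bases. krt15 had 37 and 19 in OE cells, 18 and 20 in mutants, and 8 and 8 in siblings. It was the only tested keratin with both mutants above both siblings (1.15, SE 0.60, adjusted p = 1), and it had the lowest adjusted p of any keratin for OE cells against siblings (1.61, SE 0.60, adjusted p = 0.293). At such values a difference of a few reads is a large share of the level.

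Comparing OE cells with siblings, 15 of the 17 tested keratins had a log2 difference above 0, as did 10723 of all 20900 genes. The median was 0.90 for the keratins beside 0.02 for all genes tested. Such a median was not particular to keratins. It was 1.61 for pharyngeal and gut epithelium and 0.89 for both the neural and the endothelial list, and pigment was also above the keratins. Liver and notochord were lower but above 0, and erythroid, muscle and myeloid were below 0. All 10 endothelial markers had both OE libraries above both siblings. Both OE libraries were above both siblings for 9 keratins, where 26.9% of all genes tested were, and below both for 0, where 27% of all genes were. By limma 4 keratins were higher at an unadjusted p under 0.05 (krt5, krtt1c19e, krt91 and krt15) and 0 were lower, with 6.23% and 8.77% of all genes on these sides. No keratin passed an adjusted p of 0.05, and neither did any other gene (0%). voom on reads rebuilt from the values also passed 0 keratins.

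Comparing OE cells with mutants, 16 of the 17 keratins had a difference above 0, as did 10656 of all 20900 genes. The median was 1.71 for the keratins beside 0.02 for all genes. Here too, high medians were not particular to keratins. Lists of other cell types had 2.34 (notochord), 1.65 (pharyngeal and gut epithelium), 1.37 (pigment), 1.33 (neural), 0.91 (endothelial) and 0.80 (liver). Muscle had 0.30, erythroid -0.91 and myeloid -1.95. Both OE libraries were above both mutants for 11 keratins (24.1% of all genes) and below both for 0 (24.6% of all genes). By limma 8 keratins were higher at an unadjusted p under 0.05 (krt18, krt4, cyt1l, cyt1, krt5, krtt1c19e, krt91 and krt92), with 8.68% of all genes higher and 8.9% lower, and 0 keratins and 0% of genes passed the adjusted threshold. voom also passed 0 keratins. This comparison shares its OE libraries with the one against siblings, so their results are not independent. Here the outcome turned on which mutant library was used. Without mutant 1, krt4, cyt1l and cyt1 passed by limma (lowest adjusted p = 0.025), with differences of 3.31, 3.89 and 4.04, where 115 of all 20900 genes (0.55%) passed. Without mutant 2 these 3 did not pass, and krt8 and krt18 did (lowest adjusted p = 0.00835), with differences of 1.92 and 1.69. In that fit 2512 of all genes (12%) passed, so 2 of 17 keratins is near the share of all genes. The lone mutant is assumed in these fits to vary like the other groups.

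Comparing mutants with siblings, 3 of the 17 keratins had a difference above 0, as did 10201 of all 20900 genes. The median was -0.34 for the keratins beside -0.01 for all genes. Both mutants were above both siblings for 1 keratin, krt15 (13.3% of all genes), and below both for 1, krt92 (13.4% of all genes). By limma 0 keratins had an unadjusted p under 0.05 in either direction (1.23% of all genes higher and 2.17% lower), and 0 keratins and 0% of genes passed the adjusted threshold. voom passed 0 as well. The median was 0.14 without mutant 2, 0.24 without sibling 1 and -1.42 without sibling 2, so 1 library decided its sign. An exact permutation test of 2 libraries against 2 cannot give a p below 0.333 and was therefore not used for any keratin.

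**Figure D3:**
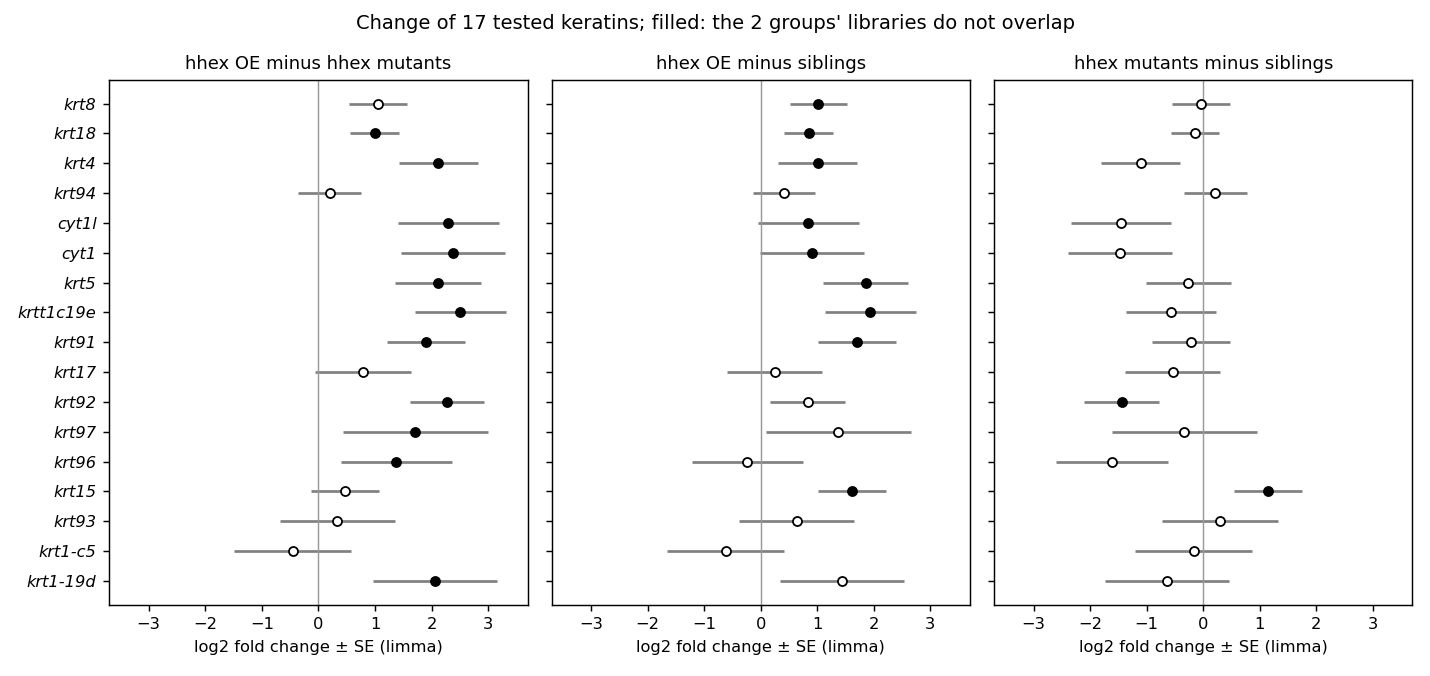
log2 difference of the 17 tested keratins (horizontal axes, ± SE from limma) for OE cells minus mutants, OE cells minus siblings and mutants minus siblings; filled points mark keratins whose libraries do not overlap between the 2 groups. 11, 9 and 2 points are filled, and no keratin passed an adjusted p of 0.05.

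The distance between libraries of 1 group was larger for the keratins than for genes overall in all 3 groups. Among genes averaging 50 or more, the median SD of log2(value + 1) between the 2 libraries of a group was 0.27 for the keratins and 0.17 for all genes in OE cells, 1.30 and 0.31 in mutants, and 0.91 and 0.20 in siblings. The OE libraries were thus the most alike in keratins, and the mutants the least. In mutants the spread was 1.22 for krt8, krt18 and krt94 and 1.61 for the 8 others, although these sets moved in opposite directions between mutant 1 and mutant 2. In siblings it was 0.53 and 1.12. A wide distance between replicates was not particular to keratins. Relative to the 6 libraries, the mean log2 level of the 10 endothelial markers was -1.09 in mutant 1 and 0.44 in mutant 2. It was -0.65 and 0.13 in siblings, and 0.70 and 0.47 in OE cells.

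The make-up of the keratin signal showed the same. The 19 keratins summed to 53984 and 43007 in OE cells, 15815 and 36604 in mutants, and 22551 and 29531 in siblings, which is between 0.0709% and 0.260% of each library's total. krt8, krt18 and krt94 took 85.9% and 81.2% of this sum in OE cells, 73.6% and 97.8% in mutants, and 73.4% and 92.1% in siblings. The remaining keratins summed to 7590 and 8068 in OE cells, 4179 and 808 in mutants, and 6005 and 2331 in siblings. The share of krt8, krt18 and krt94 was thus nearly the same in mutant 1 and sibling 1. In percentage points it differed less between mutant 2 and sibling 2 than between the replicates of either group. The remaining keratins took 2.21% of the sum in mutant 2, 7.89% in sibling 2 and 26.6% in sibling 1. As a fold, mutant 2 and sibling 2 therefore lay far apart in the remaining keratins. In the share of krt8, krt18 and krt94, both OE libraries lay between the libraries numbered 1 and 2 of the other groups.

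**Figure D4:**
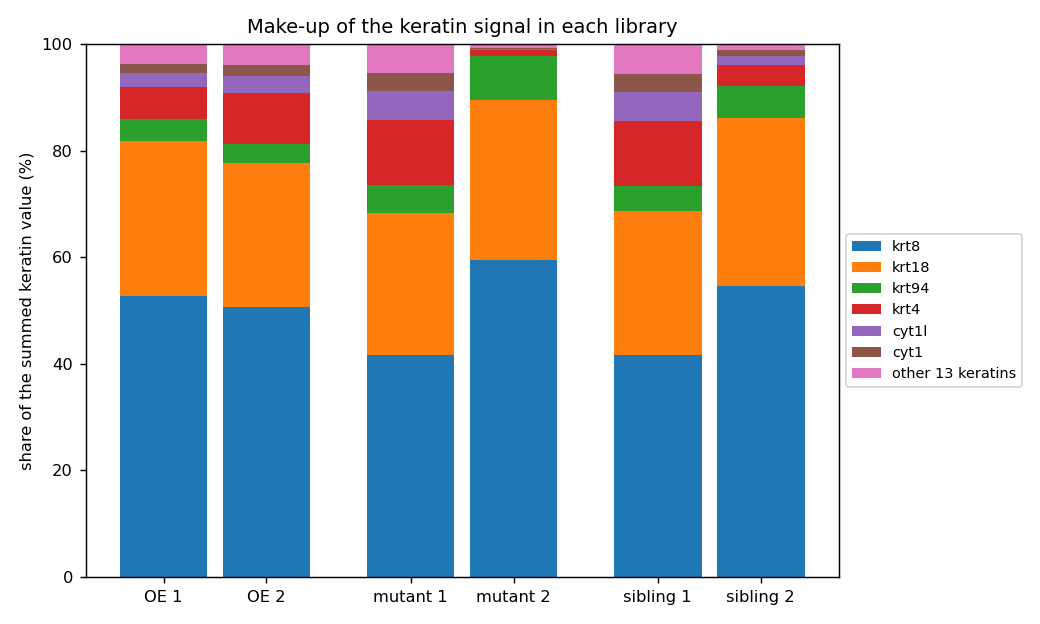
Share of the summed value of 19 keratins (vertical axis, %) taken by single keratins in each OE, mutant and sibling library; shares are of reads and not corrected for gene length. krt8, krt18 and krt94 together make up 97.8% in mutant 2 and 73.6% in mutant 1.

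Some keratins carry other names in the table and were outside the rule. The gene now called krt18b, listed as zgc:77517 on chromosome 6, had 1214 and 1188 in OE cells, 367 and 733 in mutants, and 421 and 799 in siblings. Both OE libraries were above the 4 others, with a difference of 1.05 against siblings (SE 0.39, adjusted p = 0.295) and 1.21 against mutants (SE 0.39, adjusted p = 0.202), and its correlation was 0.94 with krt8 and 0.17 with krt4. krt18a.2, krt98 and krt99 had at most 13 in any library.

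Proteins that hold keratin filaments were divided in the same way. Of 26 desmosome and hemidesmosome genes looked up, 23 were found and 22 were tested. Comparing OE cells with siblings, 20 of the 22 had a difference above 0 (median 0.88), 17 had both OE libraries above both siblings (26.9% of all genes), and 2 had both below (27%). Against mutants 20 of the 22 were above 0 (median 0.92), and for mutants against siblings 6 were (median -0.08). None passed the adjusted threshold by limma in any comparison. At an unadjusted p under 0.05, 6 were higher and 0 lower for OE cells against siblings (6.23% and 8.77% of all genes), 8 higher and 1 lower for OE cells against mutants (8.68% and 8.9%), and 0 for mutants against siblings (1.23% and 2.17%). Over the 6 libraries 13 of the 22 had a correlation above 0.7 with krt8, and 5 with krt4. The share of all genes above 0.7 was not computed, so these counts only describe the list. The desmosomal linker dspa had 5309 and 4315 in OE cells, 1336 and 5054 in mutants, and 2191 and 3452 in siblings (correlation 0.99 with krt8). The filament linker plecb had 10299 and 7944 in OE cells, 2264 and 6844 in mutants, and 3864 and 5602 in siblings (0.99 with krt8). The plakophilin gene pkp3b was among the 10 genes most like krt8 of all those averaging 50 or more (correlation 1.00), together with shank3b, sptbn1, tjp2b and ctnnd1. Some hemidesmosome genes of basal skin cells were instead close to krt5. The collagen gene col17a1a had 146 and 128 in OE cells, 78 and 31 in mutants, and 80 and 22 in siblings (0.98 with krt5 and 0.08 with krt8). The integrin gene itgb4 had 138 and 158 in OE cells, 52 and 38 in mutants, and 110 and 55 in siblings (0.89 with krt5 and 0.31 with krt8).

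Other skin genes were found in all groups and, like the keratins, did not form a single block. Of 18 epidermis markers that are not keratins, 17 were found and 16 tested, and they summed to 3937 and 4371 in OE cells, 2197 and 3472 in mutants, and 2690 and 2639 in siblings. In this sum mutant 2 was above mutant 1 and both siblings, unlike in krt4. Most of the sum came from perp, dsc2l and icn, and each of these had that order. They had 1176, 908 and 659 in mutant 2, and 515, 543 and 237 in mutant 1. The order of the sum need not hold for the other genes of the list. Over the 6 libraries 7 of the 16 had a correlation above 0.7 with krt4 and 3 with krt8, a limit chosen after the values were seen. The share of all genes above it was not computed, so these counts only describe the list. The 3 were perp, dsc2l and ppl, which were also on the desmosome and hemidesmosome list, as was evpla. On the krt8 side both lists thus count the same genes. The claudin gene cldni had 84 and 105 in OE cells, 53 and 14 in mutants, and 73 and 33 in siblings, and it was the gene most like krt4 of all those averaging 50 or more (correlation 1.00). aep1 had 135 and 127 in OE cells, 53 and 4 in mutants, and 111 and 38 in siblings. Of the 10 non-keratin genes most like krt4, only cldni and aep1 were on this list of epidermis markers. stmn1b (correlation 0.99) is a gene of the neural list, and the others were grip1, cdh11, clstn1, plekha6, ctnna2, cntnap2b and apc2. Closeness to krt4 was thus not particular to skin genes. The adhesion gene perp had 1812 and 1193 in OE cells, 515 and 1176 in mutants, and 763 and 847 in siblings (0.96 with krt8), and the desmosomal cadherin gene dsc2l (0.88) and the plakin gene ppl (0.75) were also closer to krt8. icn (0.66 with krt8 and -0.64 with krt4) was highest in mutant 2, and lgals3b was like neither (-0.85 and 0.00). tp63, the regulator of basal skin cells, had between 33 and 100 in the 6 libraries, and grhl3 had between 0 and 9. No gene of this list passed by limma in any comparison. At an unadjusted p under 0.05, 6 were higher and 0 lower for OE cells against mutants (8.68% and 8.9% of all genes), 2 higher and 0 lower for OE cells against siblings (6.23% and 8.77%), and 0 for mutants against siblings (1.23% and 2.17%), with medians of 0.86, 0.79 and -0.06 in this order.

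**Figure D5:**
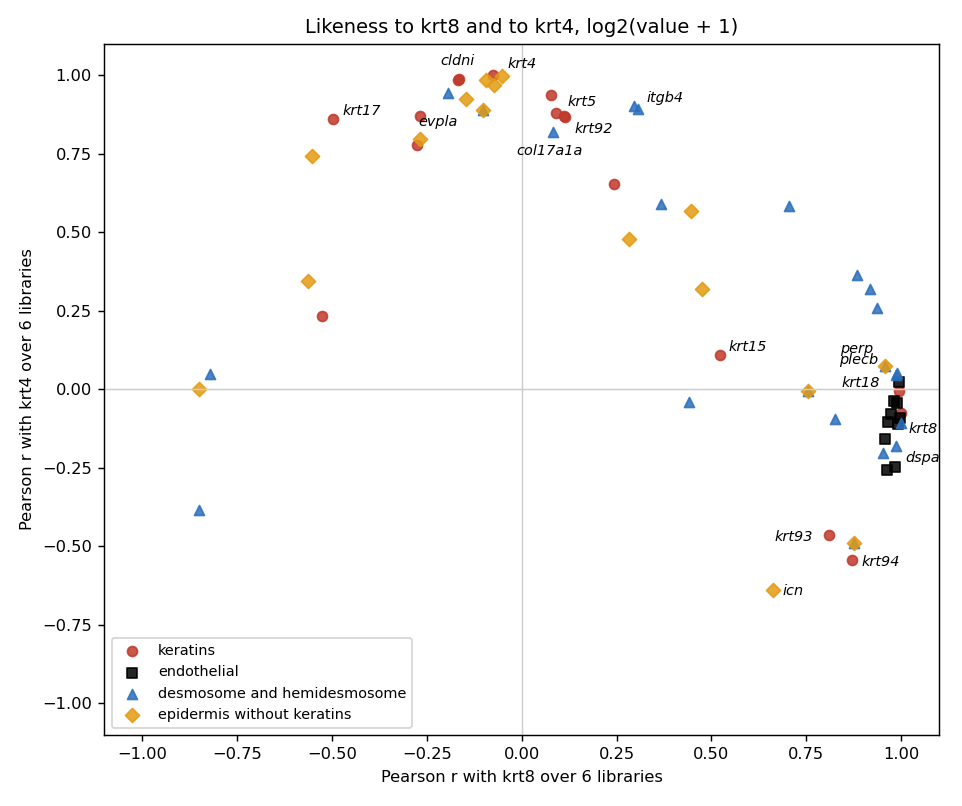
Pearson correlation of log2(value + 1) over the 6 libraries with krt8 (horizontal axis) and with krt4 (vertical axis); points are the 17 tested keratins, 10 endothelial markers, 22 desmosome and hemidesmosome genes and 16 epidermis markers. krt8, krt18, dspa, plecb and the endothelial markers lie at the right edge, and krt5, col17a1a and cldni lie near the top and near 0 on the horizontal axis.

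Regulators of the epidermis and other intermediate filaments were looked up as well. Of the regulators, tp63 and grhl3 were also on the list of epidermis markers. Of 16 regulators, all were found and 13 were tested, with a median of 0.91 for OE cells against siblings, -0.05 for mutants against siblings and 0.91 for OE cells against mutants. None passed by limma, and 4, 0 and 2 were higher at an unadjusted p under 0.05 in these comparisons (6.23%, 1.23% and 8.68% of all genes), with 0 lower in each (8.77%, 2.17% and 8.9%). klf4 had 267 and 204 in OE cells, 85 and 163 in mutants, and 107 and 100 in siblings (OE against siblings 1.17, SE 0.36, adjusted p = 0.252). Its correlation was 0.88 with krt8, 0.85 with the endothelial list and 0.22 with krt4. tfap2a, an early regulator of skin and neural crest, had 131 and 143 in OE cells, 72 and 32 in mutants, and 93 and 60 in siblings, and was close to krt4 (correlation 0.98). Over the 6 libraries only 3 of the 13 tested regulators had a correlation above 0.7 with krt4, and 3 with krt8. The other tested regulators were below this limit with both. The share of all genes above it was not computed. Of 20 other intermediate filament genes 19 were found and 14 tested, with medians of 0.27, -0.01 and 0.28 in the same 3 comparisons. None passed by limma, and 2, 1 and 1 were higher and 1, 1 and 0 lower at an unadjusted p under 0.05, beside the same shares of all genes. The lamin gene lmnb2 had 3078 and 3139 in OE cells, 2784 and 3298 in mutants, and 2745 and 3464 in siblings. This nuclear lamin was thus nearly level, as was lmnb1 (1175 to 1589), but other genes of the list were not. desma had 69 and 88 in OE cells, 202 and 57 in mutants, and 300 and 171 in siblings. gfap had 68 and 45 in OE cells, 191 and 36 in mutants, and 70 and 24 in siblings. vim had 50 and 63 in OE cells, 55 and 45 in mutants, and 22 and 8 in siblings.

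By the fixed measure of likeness, the 10 genes closest to the mean log2 profile of the 17 tested keratins were proser1, ldb1a, sox9b, pclob, ntn1a, slc1a3b, nat8l, dclk1b, atn1 and chl1b, with correlations between 0.97 and 0.99 over 6 libraries. Of the 17, 10 had a correlation above 0.7 with krt4 and 4 with krt8, counting krt4 and krt8 themselves. The share of all genes above this limit was not computed. sox9b had 198 and 173 in OE cells, 131 and 75 in mutants, and 146 and 86 in siblings. slc1a3b, a glial glutamate transporter, had 173 and 133 in OE cells, 55 and 13 in mutants, and 65 and 18 in siblings.

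Markers of other cell types were also present in the sorted libraries. The 6 neural markers, all detected in every library, summed to 2224 and 2111 in OE cells, 1128 and 801 in mutants, and 1388 and 1024 in siblings, so that their sum was highest in OE cells and lowest in mutant 2. Of the 6, elavl3 (correlation 0.97), stmn1b (0.99) and sv2a (0.91) were close to krt4, whereas snap25a (0.14) was not, gng3 was closest to krt5 (0.86) and tubb5 was closer to krt8 (0.79). The muscle list was highest in siblings (5765 and 16261 in OE cells, 10848 and 6332 in mutants, and 33151 and 22406 in siblings), and the myeloid list was lowest in OE 1 (951 and 8744 in OE cells, 10630 and 12909 in mutants, and 8014 and 8525 in siblings). The order of the myeloid sum did not hold for mfap4, which had 60 and 182 in OE cells, 13 and 0 in mutants, and 14 and 4 in siblings. The correlation of mfap4 with krt4 was 0.94. Erythroid genes summed to 4072 and 3090 in OE cells, 5354 and 4495 in mutants, and 5614 and 3416 in siblings. Of the 6 ionocyte markers, which mark salt-transporting cells of the skin, the regulators foxi3a and foxi3b had at most 6 in any library, slc4a1b at most 18, and the proton pump gene atp6v1aa, which other cells also express, between 138 and 230. The mucous cell gene spdef had at most 3, and agr2 had 14 and 22 in OE cells, 2 and 10 in mutants, and 2 and 11 in siblings. The part of neural and other skin cells in the keratin values was not tested.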

How the data were processed

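RNA of sorted cells was sequenced with a stranded total RNA kit as single reads. Per the labels and the methods, the authors trimmed with Reaper, aligned to GRCz10 (danRer10) with STAR 2.4.0a and counted reads on Ensembl genes with featureCounts 1.4.5-p1, leaving out reads that matched several places or genes; whether strand was used is not given in the sources used here. The deposited signal values are these counts after DESeq2 size-factor normalisation by the authors, rounded to whole numbers. A read was worth 0.810 to 1.10 units, as estimated from the low values.

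Here log2(value + 1) was fitted with limma 3.58.1 in R 4.3.3 for the 20900 genes averaging 5 units or more, with the 3 groups in 1 model, trend and robust settings, and Benjamini-Hochberg adjustment over all 20900 genes. The threshold was 0.05. Keratins averaging 50 or more, or past the threshold, were named, beside the 10 genes whose profile was most like the mean of the tested keratins; krt15, krt93 and the genes of other lists were named after their values were seen. The script was tested on simulated data. The keratins, lists and tests were chosen with earlier results of these data known. Alternatives were other filters, pseudocounts and scalings, 4-library fits, a replicate block, leaving out each library, and voom. Gene symbols were matched to a newer symbol table, which held 26237 of the 31701 IDs and all 19 keratins; its coordinates were not used. Protein and promoter sequences were not used here, so identity between keratins and promoter motifs were not computed.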

Additional observations from a re-analysis of the deposited data

How the results depend on the processing

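No keratin passed in any comparison without a low-value filter, with a minimum mean of 50, with a pseudocount of 0.1 or 5, quantile scaling, fits of only the 4 libraries compared, an adjusted p of 0.1, or voom on rebuilt reads, which was chosen after seeing the data. In the 4-library fit of OE cells and siblings 841 genes (4.02%) passed, and 0 keratins did (lowest adjusted p = 0.0653). Leaving out 1 library gave 0 keratins for OE cells against siblings and for mutants against siblings, and 0 to 3 for OE cells against mutants. In these fits 793 and 838 of all genes passed for OE cells against siblings without mutant 1 or 2, and 115 and 2512 for OE cells against mutants. The median difference then ranged over 0.64 to 1.49 for OE cells against siblings, -1.42 to 0.24 for mutants against siblings and 1.12 to 2.07 for OE cells against mutants.

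Rescaling to the endothelial markers moved the keratin median to 0.061 (OE against siblings) and 0.77 (OE against mutants), with the median of all genes at -0.79 and -0.87. All genes shift alike under this scaling, so sign changes there say nothing of the keratins in particular. They were found for cyt1l (-0.00038), krt17 (-0.58) and krt94 (-0.43) for OE cells against siblings, for krt17 (-0.12) and krt94 (-0.71) for OE cells against mutants, and for krt8 (0.033) for mutants against siblings.

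Of 33 named keratin values, 13 turned sign without 1 library. For mutants against siblings the ranges were -0.90 to 0.82 for krt8, -0.84 to 0.55 for krt18, -0.71 to 1.14 for krt94, -2.30 to 0.085 for krt4, -3.05 to 0.14 for cyt1l, -3.14 to 0.19 for cyt1, -1.42 to 0.90 for krt5, -1.66 to 0.52 for krtt1c19e, -1.26 to 0.85 for krt91 and -1.77 to 0.69 for krt17. For OE cells against mutants they were -0.44 to 2.02 for krt17 and -0.73 to 1.12 for krt94, and for OE cells against siblings -0.69 to 1.19 for krt17. Smaller fits tested fewer libraries, and the cause of the sign changes was not tested.

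The labels number the replicates 1 and 2 in each group but tie no number to a clutch or day. Deviations of same-numbered libraries correlated at -0.20 (OE and mutants), -0.11 (OE and siblings) and 0.49 (mutants and siblings) over 11850 genes. With a replicate block, 0 keratins passed in each comparison and no call changed. With the OE numbers crossed, a fit added after seeing the data, 3 keratins passed for OE cells against mutants and 0 for OE cells against siblings, where 1213 (5.8%) and 689 (3.3%) of all genes did. The 2 libraries per group limit every comparison.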
